A study of Arabidopsis thaliana with 4 samples.

Results

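VQ proteins are small plant proteins that share a short motif built around a valine and a glutamine, and many of them bind the DNA-binding domain of WRKY transcription factors of group I and group IIc. They have no DNA-binding domain of their own that is known and act as partners that raise or lower WRKY activity, and several are substrates of the MAP kinases of immune signalling. In Arabidopsis they are best known from defence against fungi and insects, from jasmonate and salicylate signalling and from seedling growth in the light. The 9 genes described here encode the WRKY33 partners SIB1 (AT3G56710) and SIB2 (AT2G41180), the MPK4 substrate MKS1 (AT3G18690), the jasmonate-linked repressor JAV1 (AT3G22160, also VQ22), and VQ4 (AT1G28280), VQ10 (AT1G78410), VQ29 (AT4G37710), VQ32 (AT5G46780) and VQ33 (AT5G53830). They were taken by gene identifier from the 33602 genes of the deposited table, and they make up 9 of the 34 genes of the VQ family, all of which are in that table.

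The series asked which genes respond early to glutamate in Arabidopsis thaliana. The libraries came from whole seedlings of the ecotype Col-0, aged 14 days and raised hydroponically without nitrogen. The control group (2 libraries) was taken at 0 h, and the glutamate group (2 libraries) after 0.5 h in the same nitrogen-free salts with 2.5 mM glutamate. A control moved to glutamate-free medium is not among the 4 libraries, so handling, elapsed time and glutamate cannot be told apart. Separate cultures within a group are not stated in the labels, and p-values then reflect only the spread among these libraries, possibly a technical one.

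The 9 genes were chosen with this contrast known. Their differences between 0 h and 0.5 h are therefore given as a description, with no p-value. Whether one of the 9 passed a threshold is stated in the same sense and is not support for a response. Only genes outside the 9 are given a p-value. Their lists were also drawn up with earlier results of these data known, so these p-values are descriptive too.

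All 9 genes carry the VQ motif, and the DNA that codes for it is shown because this stretch, which contacts the WRKY domain, is what the genes have in common. The motif was searched as a phenylalanine, any 3 residues, a valine and a glutamine, any 2 residues, a threonine and a glycine, which are coded by 30 bases. The sequences are RefSeq's, build TAIR10.1, 5′ to 3′ on the coding strand, and capitals mark the valine and glutamine codons.
SIB1, chr3:21007308-21007337, minus strand: ttcagagagctcGTTCAAgaactcacaggc
SIB2, chr2:17165404-17165433, plus strand: ttcagagagcttGTTCAAgaactcaccggt
MKS1, chr3:6430148-6430177, minus strand: ttcatgaacgtaGTCCAGcgactcacaggg
JAV1, chr3:7818472-7818501, minus strand: ttccgtgccatgGTTCAGcaatacactggc
VQ4, chr1:9887168-9887197, minus strand: ttcaaacaagtcGTCCAGatgctaaccgga
VQ10, chr1:29502812-29502841, plus strand: ttcaagaccgttGTTCAAgaactcaccggt
VQ29, chr4:17718429-17718458, plus strand: ttcaaagtgttgGTTCAGaggctaaccggt
VQ32, chr5:18979401-18979430, plus strand: ttcagatccattGTTCAGcagctaaccgga
VQ33, chr5:21857231-21857260, plus strand: ttcaaacaagtcGTTCAGatgcttaccggc

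The motif DNA of SIB1 and SIB2 was identical at 27 of 30 bases, and so was that of VQ4 and VQ33. Outside the 9, VQ19 was closer to both VQ4 and VQ33, at 28 of 30 bases, and VQ1 matched VQ10 at 27. Over the whole coding sequence, SIB1 (456 bases) and SIB2 (426 bases) were identical in 69.3% of alignment columns, the highest value among the 9 genes, followed by VQ4 (744 bases) and VQ33 (732 bases) at 52.7%. Each of the 9 coding sequences lies in 1 exon, as in 23 of the other 25 VQ genes. Among all 27444 nuclear protein-coding genes 23.3% have 1 coding exon. The full 10-residue consensus was found in 9 of 9 of these genes and in 23 of the other 25.

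Across the contrast, 8 of the 9 genes were higher in both glutamate libraries than in both control libraries, and JAV1 was the exception. In limma, 7 of the 9 passed an adjusted p under 0.05, all upward (8 of 9 at an unadjusted p under 0.05), and 0 passed downward, at either threshold or with voom weights on recovered reads. Among all 17750 tested genes, 30.8% passed in either direction, 16.3% upward and 14.6% downward, and 29.1% had both glutamate libraries above both control libraries, while 37.1% had both below. Nothing is read from the 7 of 9, since the genes were chosen on this contrast. The median change of the 9 was 1.28 on the log2(RPKM + 1) scale, against -0.06 for all tested genes. All 9 were tested because they averaged at least 1 RPKM (reads per kilobase of gene, scaled to sequencing depth) across the 4 libraries, VQ29 through its glutamate libraries only.

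**Figure D1:**
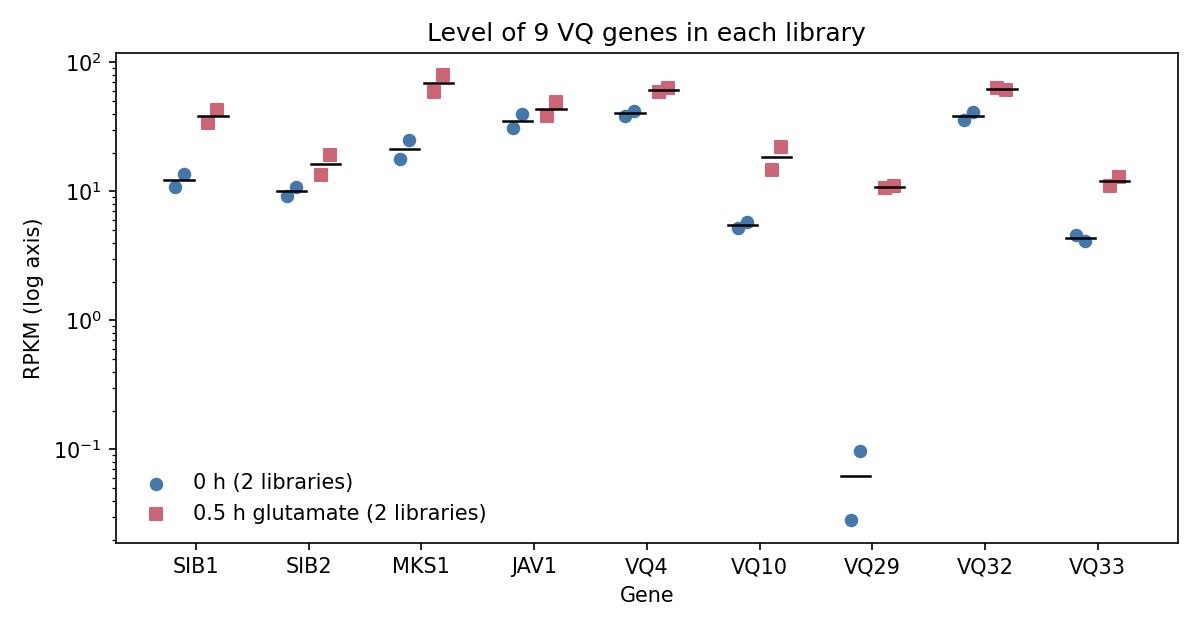
RPKM of the 9 VQ genes on a log axis, with 1 point per library, circles for 0 h, squares for 0.5 h of glutamate and a black line at the mean of each group (n = 2). The groups are apart in every gene but JAV1, where they overlap, and VQ29 goes from near 0 to about 11 RPKM.

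SIB1 and SIB2 are sigma factor binding proteins that enter the chloroplast and also bind WRKY33 in the nucleus, where they raise its activity against necrotrophic fungi. SIB1 (chr3:21006638-21008068, minus strand) was at 10.8 and 13.7 RPKM in the control libraries and at 34 and 42.4 RPKM in the glutamate libraries. The groups did not overlap, and the ratio of means was 3.12, with a log2 change of 1.57 ± 0.18 (SE). SIB2 (chr2:17165191-17166110, plus strand) was at 9.27 and 10.8 RPKM in the controls and at 13.5 and 19.0 RPKM with glutamate. Its groups were also apart, but the gap between them was smaller than that between the glutamate libraries, and the log2 change of 0.63 ± 0.19 did not pass the threshold. The SIB2 value is less certain than that of SIB1, because its shared-read fraction is 0.180, against 0 in SIB1. The deposited data do not define this fraction, which is read here as the part of the reads shared with other loci. A long non-coding gene, AT2G41178, overlaps SIB2 on the opposite strand over 920 bases and was itself at 0.256 to 1.12 RPKM.

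MKS1 binds WRKY33 and WRKY25 and is phosphorylated by MPK4, a MAP kinase that restrains salicylate defence. MKS1 (chr3:6429534-6430517, minus strand) was at 17.9 and 24.8 RPKM in the controls and at 58.7 and 79.4 RPKM with glutamate. The groups were well apart, at 21.3 ± 4.83 and 69.0 ± 14.6 RPKM (SD, n = 2), and the log2 change was 1.65 ± 0.22. MKS1 has a shared-read fraction of 0.124. An antisense RNA gene, AT3G03745, overlaps it on the opposite strand over 128 bases and has no values in the deposited data. MKS1 also overlaps the protein-coding gene AT3G18680 on the opposite strand over 159 bases. That neighbour was at 73.4 and 84.6 RPKM in the controls and at 81.0 and 71.7 RPKM with glutamate, levels at which its groups overlapped. The use of strand in counting is not given in the sources used here, so reads of such pairs cannot be told apart.

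VQ4 and VQ33 are listed by RefSeq as MVQ1 and MVQ3, VQ proteins targeted by the kinases MPK3 and MPK6. VQ4 (chr1:9885400-9887478, minus strand) was at 38.5 and 42.3 RPKM in the controls and at 59.0 and 63.4 RPKM with glutamate. The groups were apart, and the log2 change of 0.59 ± 0.12 was small beside that of VQ33. VQ4 no longer passed when libraries were scaled to their totals, quantile normalized or centred on control genes (log2 changes of 0.40, 0.37 and 0.47), nor without control replicate 1 (0.52) or glutamate replicate 2 (0.54). VQ33 (chr5:21856948-21858102, plus strand) was at 4.55 and 4.14 RPKM in the controls and at 11.0 and 13 RPKM with glutamate. Its level at 0.5 h was 2.76 times that at 0 h, with a log2 change of 1.28 ± 0.14.

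JAV1 represses jasmonate-dependent defence and is removed when jasmonate accumulates after wounding. JAV1 (chr3:7817779-7818985, minus strand) was at 30.9 and 39.8 RPKM in the controls and at 38.4 and 48.9 RPKM with glutamate. The first glutamate library lay below the second control library, so the groups overlapped. The log2 change of 0.30 ± 0.19 was the smallest of the 9 and did not pass.

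VQ10 binds WRKY8 and contributes to resistance against the grey mould Botrytis cinerea. VQ10 (chr1:29502506-29503938, plus strand) was at 5.24 and 5.75 RPKM in the controls and at 14.6 and 22.2 RPKM with glutamate, and the lower glutamate library lay well above both controls. Its log2 change was 1.55 ± 0.21. VQ32 (chr5:18978953-18980183, plus strand) was at 35.5 and 41.3 RPKM in the controls and at 62.7 and 61.2 RPKM with glutamate, apart but by a smaller factor, with a log2 change of 0.68 ± 0.13. Without control replicate 1 the change of VQ32 was 0.57 and did not pass.

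VQ29 dampens the response of seedlings to light and binds the light-signalling factor PIF1. VQ29 (chr4:17718118-17718771, plus strand) was covered by 0 and 1 reads at 0 h and by 128 and 156 reads at 0.5 h. It was thus near silence at 0 h and clearly present at 0.5 h, at 10.6 and 11.1 RPKM. Scaled to the effective library sizes, the summed reads differed by a ratio of 359, with a 95% exact (Clopper-Pearson) interval from 63.9 to 14200 that covers counting error only. The deposited control values of 0.0282 and 0.0969 RPKM contain an added 0.5 read, and the log2(RPKM + 1) change of 3.48 ± 0.14 understates the ratio.

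In both groups the second library was higher than the first for 8 of the 9 genes. VQ33 was the exception at 0 h and VQ32 at 0.5 h. Among all tested genes the second library was higher in 49.4% at 0 h and in 48.8% at 0.5 h. Apart from VQ29, each of the 9 genes had between 95 and 2038 reads in every library.

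At 0 h the order of the 9 levels, which RPKM sets per length, began with VQ4, VQ32 and JAV1 at means of 40.4, 38.4 and 35.3 RPKM. These neighbours in the order overlapped between libraries. MKS1, SIB1, SIB2, VQ10, VQ33 and VQ29 followed, each apart from the next, SIB1 and SIB2 only narrowly (lowest SIB1 library 10.83 RPKM, highest SIB2 library 10.82 RPKM). At 0.5 h MKS1 had the highest mean, but its libraries overlapped those of VQ32, as VQ32 did those of VQ4. JAV1 overlapped SIB1, VQ10 overlapped SIB2, and VQ33 overlapped VQ29, the last in both orders.

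**Figure D2:**
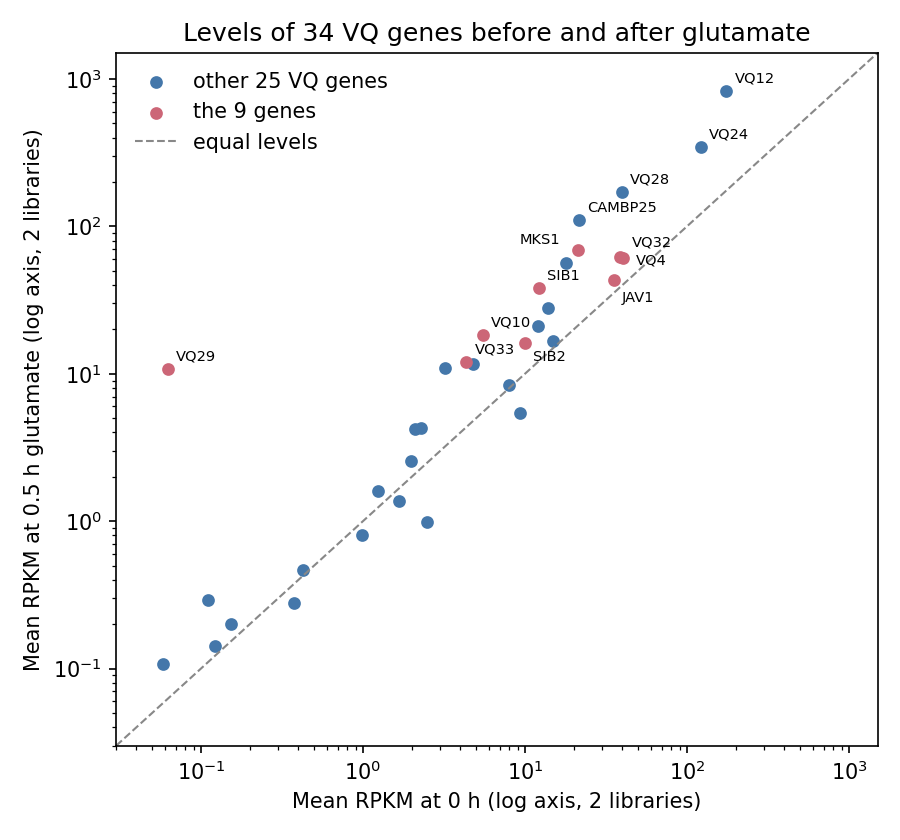
Mean RPKM of the 34 VQ genes at 0 h (horizontal) and after 0.5 h of glutamate (vertical), both on log axes and each a mean of 2 libraries. Points above the dashed line were higher with glutamate. VQ29 lies far above it, and VQ12 and VQ24, outside the 9 genes, have the highest levels.

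Of the other 25 VQ genes 18 were tested, and 10 rose and 2 fell at an adjusted p under 0.05 in limma, with a median log2 change of 0.76. Among all tested genes 16.3% rose and 14.6% fell, with a median of -0.06. VQ2 was tested through its control libraries only. The other 7, namely VQ5, VQ7, VQ13, VQ20, VQ25, VQ26 and VQ31, had 0 to 36 reads per library, had a mean under 1 RPKM and were not tested. The 9 genes held 27.0% and 26.7% of the summed RPKM of the family at 0 h and 17.3% and 16.5% at 0.5 h, while VQ12 alone went from 26.5% and 29.3% to 39.9% and 44.1%.

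The calmodulin-binding protein gene CAMBP25 (VQ15, AT2G41010) rose from 21.6 ± 0.67 to 110.0 ± 7.24 RPKM, with a log2 change of 2.29 ± 0.12 (limma adjusted p = 0.000159). VQ12 (AT2G22880), whose product like VQ29 lowers resistance to Botrytis, rose from 175 ± 35.6 to 831 ± 190.0 RPKM, with a log2 change of 2.24 ± 0.22 (limma adjusted p = 0.00131). The whole of VQ12, 345 bases, lies opposite the gene AT2G22870, which was at 13.8 and 18.5 RPKM at 0 h and at 29.4 and 40.6 RPKM at 0.5 h. VQ28 (AT4G20000) rose from 39.6 ± 1.86 to 172 ± 27.3 RPKM and VQ24 (AT3G56880) from 122 ± 18.2 to 344 ± 21.2 RPKM. Among genes at lower levels, VQ1 (AT1G17147) rose from 17.8 ± 3.46 to 56.6 ± 17.3 RPKM and VQ27 (AT4G15120) from 3.21 ± 0.01 to 10.9 ± 0.80 RPKM.

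VQ8 (AT1G68450, also PDE337) rose by 1.13 ± 0.27 on the log2 scale, a call that was lost without the filter on low values (adjusted p = 0.0627, limma). The ABI5 partner VQ18 (AT2G44340) and VQ17 (AT2G42140) rose by 0.76 ± 0.15 and 0.68 ± 0.13. VQ18 lost its call without control replicate 1 or glutamate replicate 1 (limma adjusted p = 0.0503 and 0.0527) and VQ17 without glutamate replicate 1 or 2 (0.0546 and 0.0593). VQ3 (AT1G21326) rose by 0.97 ± 0.13 and VQ2 (AT1G21320) fell from 2.49 ± 0.26 to 0.981 ± 0.20 RPKM. VQ3 and VQ2 have shared-read fractions of 0.384 and 0.195, so both values are uncertain. VQ19 (AT3G15300, also MVQ4), a target of MPK3 and MPK6, fell from 9.27 ± 0.60 to 5.43 ± 0.39 RPKM, a call lost without control replicate 1 (limma adjusted p = 0.0501) or glutamate replicate 2 (0.0774). Of the tested genes that RefSeq lists as MVQ, VQ33 and VQ4 were higher and VQ19 was lower in limma. The calls of VQ4 and VQ19 were lost under some alternatives.

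The 6 tested genes without a call included VQ9 (AT1G78310), another partner of WRKY8, at 15 ± 0.05 and 16.8 ± 1.31 RPKM, and IKU1 (VQ14, AT2G35230), which acts in seed growth, at 7.92 ± 0.75 and 8.34 ± 1.15 RPKM. VQ11 (AT1G80450) had a log2 change of 0.75 ± 0.22 (limma adjusted p = 0.0522) and passed without control replicate 2 (0.0385) or glutamate replicate 1 (0.00463), and with a mean of at least 5 RPKM, the median log2 ratio set to 0 or voom weights (0.0423 to 0.0495). VQ34, VQ6 and VQ30 had log2 changes of 0.26, 0.23 and -0.17.

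**Figure D3:**
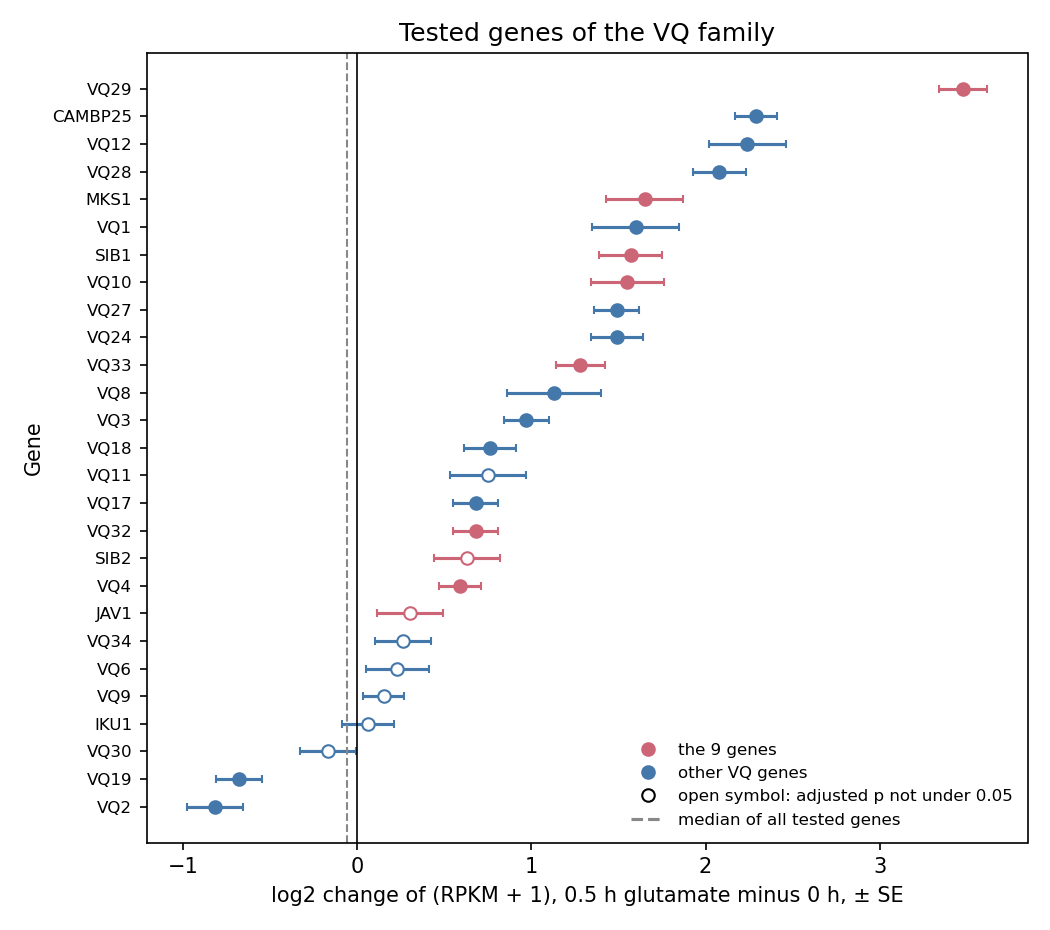
Log2 change of RPKM + 1 from 0 h to 0.5 h of glutamate, with its SE from limma, for the 27 tested VQ genes, the 9 genes in red and the others in blue. Open symbols did not pass an adjusted p of 0.05, and the dashed line is the median of all tested genes (-0.06). VQ29 has the largest change, 3.48. VQ2, VQ19 and VQ30 lie below 0, VQ30 without passing.

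Genes of proteins known to bind, phosphorylate or act with VQ proteins, or closely related to such partners, make up a list of 23, of which 21 were tested. In limma 10 rose and 5 fell, where 16.3% and 14.6% of all tested genes did, and the median log2 change was 0.52, against -0.06 for all. JAZ8 and WRKY51 were tested through their glutamate libraries only, and the list was drawn up with earlier results of these data known. WRKY33 (AT2G38470), the shared partner of SIB1, SIB2 and MKS1 and a regulator of camalexin synthesis, rose from 48.4 ± 11.7 to 474 ± 77.8 RPKM, with a log2 change of 3.28 ± 0.21 (limma adjusted p = 0.000303). WRKY25 (AT2G30250), also bound by MKS1, rose from 77.1 ± 3.90 to 138 ± 12.8 RPKM. WRKY57 (AT1G69310), which SIB1 and SIB2 also bind, missed the threshold at 9.79 ± 1.36 and 14.5 ± 1.45 RPKM (limma adjusted p = 0.0511), but passed without control replicate 2 (0.0395) and with a mean of at least 5 RPKM, the median log2 ratio set to 0 or voom weights (0.0374 to 0.0476). The kinase gene MPK4 (AT4G01370) was at 46.5 ± 5.92 and 52.5 ± 2.91 RPKM and MPK6 (AT2G43790) at 48.9 ± 3.20 and 46.8 ± 5.25 RPKM, and neither passed. MPK3 (AT3G45640), whose product shares VQ4 and VQ33 as substrates with MPK6, rose from 91.2 ± 6.31 to 555 ± 0.48 RPKM (limma adjusted p = 0.000119).

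JAV1 acts in a complex with the jasmonate repressor JAZ8 and with WRKY51. JAZ8 (AT1G30135) had 0 and 2 reads at 0 h and 57 and 102 reads at 0.5 h, a ratio of 100.5 with a 95% exact interval from 27.4 to 837 that covers counting error only. WRKY51 (AT5G64810) rose from 0.584 ± 0.09 to 2.97 ± 0.49 RPKM and WRKY28 (AT4G18170), another WRKY bound by JAV1, from 17.1 ± 1.93 to 44.7 ± 3.66 RPKM. JUL1 (AT5G10650), the ubiquitin ligase that targets JAV1 for breakdown, fell from 11.9 ± 0.003 to 7.44 ± 0.57 RPKM, a call lost without glutamate replicate 2 (limma adjusted p = 0.106). The JAV1 libraries overlapped between the groups, while the genes of its partners JAZ8, WRKY51 and WRKY28 were higher and that of JUL1 was lower. Whether JAV1 differs in its response from these genes was not tested.

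The VQ10 partner WRKY8 (AT5G46350) rose from 3.97 ± 0.90 to 8.98 ± 2.22 RPKM, a call lost without the filter on low values (limma adjusted p = 0.0514). ABI5 (AT2G36270), an abscisic acid factor bound by VQ18 and VQ26, rose from 5.65 ± 0.39 to 11.3 ± 0.92 RPKM. WRKY2 (AT5G56270), a partner of VQ20, rose from 2.52 ± 0.06 to 5.07 ± 0.58 RPKM, a call lost without glutamate replicate 2 (limma adjusted p = 0.0561). WRKY75 (AT5G13080) rose by 0.73 ± 0.18 on the log2 scale, and lost its call without the filter (limma adjusted p = 0.0518), with library totals (0.0717) and without control replicate 1 (0.065) or glutamate replicate 2 (0.116). WRKY20 (AT4G26640) fell from 13 ± 0.29 to 6.75 ± 0.28 RPKM. WRKY26 was at 88.8 ± 14.7 and 122 ± 6.84 RPKM and passed only without control replicate 2 (limma adjusted p = 0.0465) among the left-out libraries, and WRKY50 did not pass. The IKU1 partner WRKY10 and the pollen gene WRKY34 had 0 or 1 reads in each library.

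The partners with a role in the chloroplast or in light signalling were lower or did not pass. SIG1 (AT1G64860), the plastid sigma factor after which SIB1 and SIB2 are named, went down from 49.3 ± 3.86 to 24.9 ± 0.27 RPKM, or by -0.95 ± 0.12 on the log2 scale (limma adjusted p = 0.00339). GLK2 (AT5G44190), a regulator of photosynthesis genes that SIB1 binds, fell from 101 ± 1.62 to 22.2 ± 2.55 RPKM, with a log2 change of -2.14 ± 0.13 (limma adjusted p = 0.000262). GLK1 (AT2G20570), its close relative, did not pass, at 39.6 ± 3.13 and 37.4 ± 9.19 RPKM. The VQ29 partner PIF1 (AT2G20180) fell from 10.5 ± 1.13 to 4.75 ± 0.47 RPKM, but this is uncertain because its shared-read fraction is 0.287. Of 8 shoot photosynthesis marker genes 5 also fell and 0 rose in limma, where 14.6% of all tested genes fell and 16.3% rose. At an unadjusted p under 0.05 in limma 6 of the 8 were lower and 0 higher, and with voom weights 5 were lower and 0 higher. LHCA1, RBCS1A and RBCS3B did not pass, with log2 changes of -0.45, -0.18 and -0.02, and the groups overlapped in RBCS1A and RBCS3B. LHCA1, whose groups were apart, was lower with library totals, quantile normalization and centring on control genes (limma adjusted p = 0.0308, 0.0152 and 0.0347). It was also lower with the replicate number as a block (limma adjusted p = 0.00357). LHCB1.1, LHCB2.1 and LHCB3 fell under every alternative tried, while RCA and LHCA3 lost their calls without the filter (limma adjusted p = 0.0833 and 0.11), without control replicate 1 (0.0836 and 0.0664) and without glutamate replicate 2 (0.123 and 0.107), which left 3 of the 8. LHCA3 also lost its call without control replicate 2 (0.103, limma) or glutamate replicate 1 (0.0979). The summed level of the 8 was 19100 and 18200 RPKM at 0 h and 12900 and 11300 RPKM at 0.5 h. In whole seedlings, fewer cells of a type and less RNA per cell cannot be told apart, and the part of tissue makeup in these results was not tested.

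**Figure D4:**
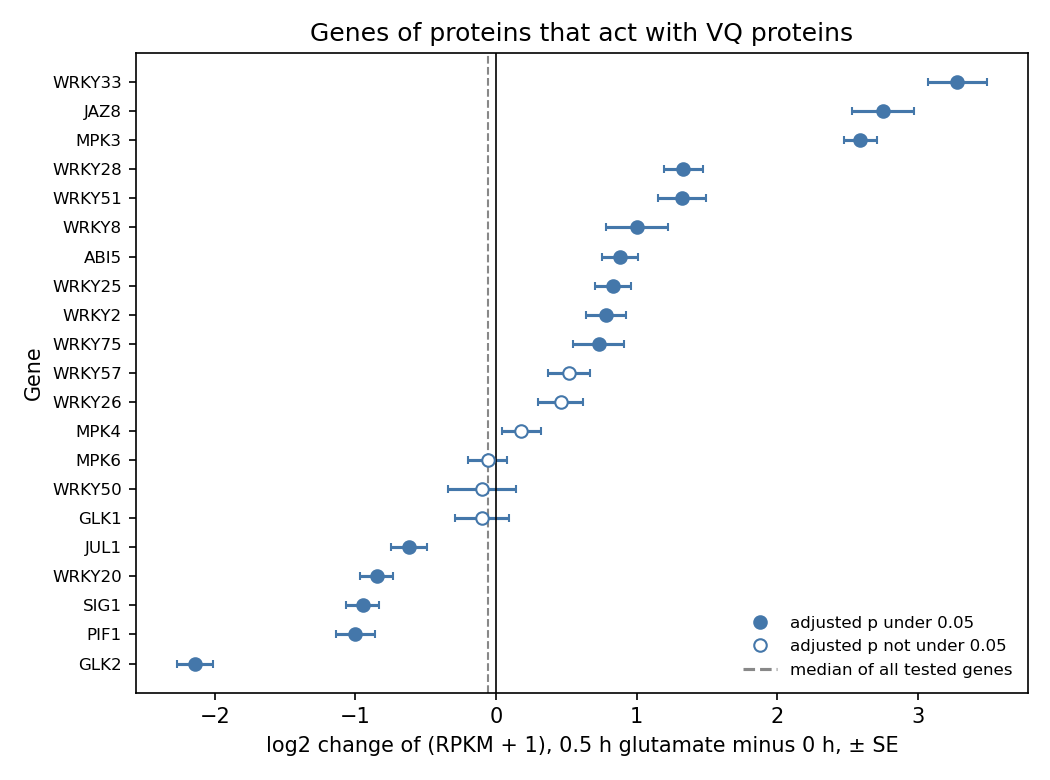
Log2 change of RPKM + 1 from 0 h to 0.5 h of glutamate, with its SE from limma, for the 21 tested partner genes. Open symbols did not pass an adjusted p of 0.05, and the dashed line is the median of all tested genes. WRKY33, JAZ8 and MPK3 lie highest and GLK2 lowest.

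The 250 bases before each RefSeq gene start were searched on both strands for TTGAC, the core that WRKY factors bind, for CGCGTT, an element of rapid stress responses, and for CACGTG, the G-box that PIF1 binds. None of these motifs overlap in the sequences shown. TTGAC was found before 3 of the 9 genes, 12 of the other 25 VQ genes and 44.9% of all 27443 genes searched. CGCGTT was found before 1 of the 9, 0 of the other 25 and 2.6% of all, and CACGTG before 0 of the 9, 1 of the other 25 and 6.5% of all. MKS1 and VQ29 held 3 TTGAC each, where 14.1% of all genes hold at least 2, and SIB2 held 2 CGCGTT, where 0.3% of all genes hold at least 2. JAV1 held 1 TTGAC. Repeats of TTGAC were not particular to the 9. Among the other VQ genes, VQ11, VQ12 and VQ27 also held 3, and VQ24, VQ28 and VQ31 held 2. The sequences of VQ29, MKS1 and SIB2 are shown because, of the 9, they hold repeated matches. The matches are in capitals and read as GTCAA or AACGCG where they lie on the other strand. They run 5′ to 3′ toward the gene.
VQ29, chr4:17717868-17718117, plus strand: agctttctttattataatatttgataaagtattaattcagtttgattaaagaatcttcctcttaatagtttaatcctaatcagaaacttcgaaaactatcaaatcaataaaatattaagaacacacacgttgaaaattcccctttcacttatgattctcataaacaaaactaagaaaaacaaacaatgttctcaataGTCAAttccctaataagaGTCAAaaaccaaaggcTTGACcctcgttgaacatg
MKS1, chr3:6430518-6430767, minus strand: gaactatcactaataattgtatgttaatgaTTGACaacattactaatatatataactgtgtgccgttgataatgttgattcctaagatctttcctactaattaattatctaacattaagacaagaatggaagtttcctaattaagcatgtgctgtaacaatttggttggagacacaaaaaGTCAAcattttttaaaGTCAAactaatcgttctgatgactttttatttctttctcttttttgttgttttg
SIB2, chr2:17164941-17165190, plus strand: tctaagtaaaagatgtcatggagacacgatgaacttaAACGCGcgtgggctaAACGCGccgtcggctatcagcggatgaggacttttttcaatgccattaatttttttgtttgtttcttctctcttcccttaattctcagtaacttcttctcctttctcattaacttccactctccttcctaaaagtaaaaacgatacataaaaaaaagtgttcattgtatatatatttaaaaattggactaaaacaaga

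In VQ29 the 3 matches began 53, 35 and 19 bases before the gene start, and in MKS1 220, 70 and 54 bases before it. The 2 CGCGTT matches of SIB2 began 213 and 198 bases before its start. The other 5 genes held none of the 3 motifs in this window, namely VQ10, SIB1 and VQ33, whose levels were 3.35, 3.12 and 2.76 times as high with glutamate, and VQ32 and VQ4, at 1.61 and 1.52 times. A match is a description of the letters and does not show that a factor binds there, and the gene starts are those of RefSeq, which need not be those the authors counted on.

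The 4 libraries held 21776595 to 27674435 reads recovered from the deposited values, and 3 reads over 1 kb corresponded to 0.104 to 0.152 RPKM. Of all tested genes, 2888 were higher and 2585 lower as deposited, and 2450 were higher and 4360 lower when libraries were scaled to their totals, which moved the median log2 change from -0.06 to -0.23. The direction of the 9 genes was the same under every scaling tried. Of 8 control genes chosen for stable expression, 0 passed in limma, with 0 at an unadjusted p under 0.05 and 0 with voom weights, and their log2 changes ran from -0.11 to 0.63. UBC9, the highest of them, passed upward without control replicate 2 (limma adjusted p = 0.021) or glutamate replicate 1 (0.0348). Markers of shoot and of root tissue both had reads in all 4 libraries. Of the 7 root markers 4 were tested and 0 passed in limma, also at an unadjusted p under 0.05 and with voom weights, while CASP1 and PYK10 were lower without control replicate 2 (limma adjusted p = 0.0125 and 0.0305) and PYK10 also without glutamate replicate 1 (0.0138) and with quantile normalization (0.0446). The summed level of the 7 was 425 and 290 RPKM at 0 h and 278 and 181 RPKM at 0.5 h. Most of it was PYK10, at 388 and 264 RPKM at 0 h and 251 and 156 RPKM at 0.5 h. The log2 changes of PYK10, CASP1, SCR and SHR were -0.69, -0.49, 0.01 and 0.13.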

How the data were processed

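RNA-seq values of 4 libraries were analysed, 2 per group, all with the same batch label. The deposited RPKM values are normalized by the authors (TMM, trimmed mean of M-values, per the file name), and the build TAIR10 and the tool SAMtools are named, per the submitters' processing notes. Aligner, counter, strand setting and versions are not stated there. The deposited fraction named maxMultiRatio is not defined in the file. It was taken to be the part of the reads shared with other loci, since genes at 0 gave whole reads.

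Value times length lies on whole odd multiples of a lowest level in each library, so reads were recovered as reads plus 0.5 per kilobase and per unit of an effective library size. They were whole within 0.01 for 99.9% or more of genes with a fraction of 0. Libraries of a group differed by more than counting noise (chi-square per degree of freedom 31.7 and 27.1). Genes averaging at least 1 RPKM (17750) entered a test of log2(RPKM + 1) by limma 3.58.1, run in R 4.3.3, two-sided, with an intensity trend, 2 residual and 3.49 prior degrees of freedom and Benjamini-Hochberg adjustment over all tested genes. Fold changes of low genes are understated on this scale. With 2 libraries a group, exact permutation p-values cannot go below 0.33. The steps were also run on simulated reads, with the same dispersion for every gene and no shared deviation between same-numbered libraries. No result given here rests on that run.

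The 9 genes and all lists were chosen with earlier results of these data known. Every one of the 9 is named with its values, as is every other VQ gene and partner gene that passed. No genes of like pattern were named, since 4 libraries in 2 groups hold no pattern beyond the contrast. Sequences and gene positions are from RefSeq (TAIR10.1), matched by gene identifier. The deposited table holds no coordinates. Where 1 to 3 control reads were left and the glutamate libraries held many more, as in VQ29 and JAZ8, a ratio with an exact 95% interval was computed from the reads. None was computed for VQ5, VQ26 and WRKY34, which had as few control reads and few or no reads with glutamate. Alternatives were another pseudocount, other filters, 4 other scalings, voom weights, a replicate block and leaving out each library.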

Additional observations from a re-analysis of the deposited data

How the results depend on the processing

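Over 13 alternatives, the log2 changes of the 9 genes kept their direction in all 117 values. The call was the same in 106, lost in 6 (VQ4 and VQ32) and gained in 5 (SIB2 in 4 and JAV1 in 1). The count of the 9 that passed was 5 to 8 without 1 library and 9 with the replicate number as a block. Same-numbered libraries of the groups deviated together across genes (r = 0.60), but 2 numbers give too few pairs to show a pairing and the labels state none. With that block 4445 genes were higher and 5280 lower, against 2888 and 2585 without it, and 11 of the other VQ genes and 12 partner genes were higher. With library totals 4360 genes were lower. Of the other VQ genes, 1 was lower with a mean of at least 5 RPKM, since fewer genes were then tested, and 1 to 2 without 1 library. With control replicate 1 or glutamate replicate 2 left out it was 1. The remaining counts of all genes, the 9, the other VQ genes and the partners stayed within 1.5 times. Marker counts were recomputed by a choice made after seeing the data. With library totals, quantile normalization, centring on control genes or the block, 6 shoot markers fell, against 5 as deposited. Shoot markers that fell went from 5 to 3 without the filter, 3 to 4 without 1 library. Root markers that fell went from 0 to 1 with quantile normalization, 2 with the block (CASP1 and PYK10) and 0 to 2 without 1 library. Control genes that rose went from 0 to 1 with the block (UBC9) and 0 to 1 without 1 library. A group left with 1 library is assumed to vary like the other. Limits are 2 libraries per group, no control moved without glutamate, counting without a stated use of strand, and shared reads in SIB2 and MKS1. VQ29 had 1 read in all at 0 h, so the interval of its ratio covers counting error only.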
